A study of Mus musculus with 6 samples.

Results

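A group of 10 platelet-lineage genes was followed in long-term haematopoietic stem cells: Itga2b, Gp1ba, Gp1bb, Gp5, Gp9, Selp, Clec1b, Vwf, Pf4 and Thbs1. They were listed by name as known megakaryocyte and platelet genes, and every probe set that the platform annotation gives to 1 of them alone was used. Of the 10 genes 9 were measured in this way, by 13 of the 34945 probe sets with a single gene, out of 18193 genes in all; Gp1ba was not analysed here. The cells were sorted from mouse bone marrow as free of lineage markers and CD48 and carrying Sca-1, c-kit and CD150, and hybridised to Affymetrix whole-genome mouse arrays. One group came from Irf8+/+ mice (wildtype) and the other from Irf8-/- mice (knockout), with 3 arrays each, all labelled 3 weeks, called biological replicates and untreated. Irf8 encodes a transcription factor that directs blood progenitors towards monocytes and dendritic cells. The labels name no strain, no number of animals behind a sample and no removed part of the gene, so p-values measure the spread between these samples.

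Platelets are shed by megakaryocytes, which arise from haematopoietic stem cells. Glycoproteins Ib, IX and V form the platelet receptor for von Willebrand factor, and integrin alpha IIb pairs with beta 3 to bind fibrinogen. In mouse marrow some stem cells already carry transcripts of this lineage, von Willebrand factor among them, and are called platelet-primed. Levels below are log2 values of a bulk sample, in which more platelet-primed cells and more RNA per cell cannot be told apart.

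Several features of the arrays bear on these genes. Array medians lay between 4.85 and 4.96, and knockout replicate 3 correlated least with the other arrays across genes (mean r 0.845, against 0.873 for the next array). The brighter Irf8 probe set gave no lower signal in knockout arrays (log2 5.93 ± 0.89, SD, n = 3) than in wildtype arrays (5.52 ± 0.79, n = 3). Where its probes lie relative to the removed part is unknown here, so this does not check the genotype. Among the sort markers, Kit read 8.09 to 10.46 over the 6 arrays and Slamf1, which encodes CD150, 4.71 to 9.11. Cd48 read 3.13 to 4.54 in wildtype and 7.60, 9.42 and 3.55 in knockout replicates 1, 2 and 3, although the gate excluded CD48. Of the 7 measured lineage genes, 6 never read above 6.51, and the other was Ptprc, a gene of all white cells. The mean of 9 stem cell genes was 8.30 to 9.07 in wildtype and 8.93, 8.51 and 7.41 in knockout replicates 1 to 3. Of these 9 genes 7 had a difference below 0, as did 7900 of all 18193 genes. Procr (-0.75, SE 0.36) and Esam (-0.60, SE 0.52) were lower without overlap, as were 4.25% of all genes. In limma both of their intervals included 0, and each had an adjusted p of 0.89. The mean of 11 neutrophil genes ran from 6.47 to 7.37 in the wildtype arrays and from 8.21 to 11.04 in the knockout arrays, and was highest in knockout replicate 3. The part of these shifts in the differences of platelet-lineage genes between the groups, in either direction, was not tested.

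In wildtype stem cells most of these genes read above most readings of genes of other tissues. As a guide to readings without expression, 64 probe sets of 41 genes of other tissues, such as liver and retina, were taken. Over all arrays their median was 4.33, their 95th percentile 6.90 and their highest value 9.61. All 3 wildtype arrays read above that percentile in 8 of the 13 probe sets, and all 3 knockout arrays did in 6. The 8 were those of Itga2b, Gp9, Pf4 and Vwf, both of Gp1bb, and 1 each of Thbs1 and Selp; the last pair were the ones not above it in every knockout array. Only Pf4 read above the highest other-tissue value, 9.61, in all 3 wildtype arrays. The share of all probe sets above the 95th percentile was not counted. Probe sets differ in how strongly they bind, so values are compared between arrays and not between genes.

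The promoter sequences of 3 of the measured genes, picked by the words they hold, are printed below. They are the 250 bases upstream of the annotated start from RefSeq (GRCm38.p6), on the gene's own strand, and the table held 8 of the 10 genes, without Vwf and Thbs1. Clec1b and Gp5 are shown because they were the measured genes with a 6-base GATA word, AGATAA or TGATAA on either strand, and Itga2b as 1 of 2 measured genes, with Selp, that had the word GGAA, the core bound by ETS factors, 6 times. Capitals mark these words, in reverse complement where they lie on the other strand.
Clec1b, chr6:129397047-129397296, plus strand: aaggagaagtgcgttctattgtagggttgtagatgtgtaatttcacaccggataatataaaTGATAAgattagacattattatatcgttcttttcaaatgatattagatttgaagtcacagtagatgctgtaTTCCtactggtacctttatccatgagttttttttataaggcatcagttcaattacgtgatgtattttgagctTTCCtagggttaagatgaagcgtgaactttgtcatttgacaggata
Gp5, chr16:30310782-30311031, minus strand: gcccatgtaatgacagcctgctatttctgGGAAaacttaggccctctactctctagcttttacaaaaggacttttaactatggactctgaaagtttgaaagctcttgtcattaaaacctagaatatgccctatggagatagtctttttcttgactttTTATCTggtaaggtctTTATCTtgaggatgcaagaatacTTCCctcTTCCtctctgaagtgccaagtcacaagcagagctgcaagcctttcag
Itga2b, chr11:102469884-102470133, minus strand: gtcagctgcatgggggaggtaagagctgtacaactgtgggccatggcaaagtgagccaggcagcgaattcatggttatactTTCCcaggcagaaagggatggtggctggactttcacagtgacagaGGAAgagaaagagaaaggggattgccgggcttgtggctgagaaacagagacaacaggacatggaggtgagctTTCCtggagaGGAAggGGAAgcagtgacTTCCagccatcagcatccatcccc

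Of the 8 promoters 3 held a GATA word (Clec1b, Gp5 and Gp1ba), as did 16.6% of 32851 promoters of the same length, and all 8 held GGAA, as did 93.45% of all promoters. These matches describe letters in this window only, and no other GATA word was searched for. The 2 measured genes with a GATA word had differences of opposite sign between knockout and wildtype, given below, and neither passed in limma. A link between word and difference was not tested.

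Itga2b encodes integrin alpha IIb, the CD41 antigen of megakaryocytes and some stem cells. It read 9.39, 8.13 and 8.72 in wildtype replicates 1 to 3 and 8.50, 9.22 and 9.05 in knockout. The groups overlapped, and the knockout minus wildtype difference was 0.18 (95% interval -1.07 to 1.42). Its partner Itgb3 read 9.72 ± 0.46 (SD, n = 3) in wildtype and 10.47 ± 0.56 (n = 3) in knockout. That difference of 0.75 had an adjusted p of 0.89 in limma, and another probe set of Itgb3 gave -1.48.

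The 3 measured subunits of the von Willebrand factor receptor did not run in parallel. Gp1bb, the beta chain that anchors the alpha chain, read 9.66, 8.57 and 8.31 in wildtype and 8.69, 8.55 and 10.004 in knockout, a difference of 0.23 (95% interval -1.25 to 1.71). Wildtype replicate 1 and knockout replicate 3 were the high arrays. Its second probe set gave the same 2 high arrays, at 9.26 and 9.66 against 7.82 to 8.30 in the other 4. Gp9, the small subunit that the complex needs to reach the surface, varied least of the 9 genes within both groups. Its values were 7.77, 8.16 and 7.94 in wildtype and 8.05, 7.54 and 8.06 in knockout, a difference of -0.07 (95% interval -1.21 to 1.07). Gp5, the subunit that thrombin cleaves, read 6.83, 5.54 and 5.00 in wildtype and 7.89, 7.49 and 5.60 in knockout. Knockout replicates 1 and 2 lay above all wildtype arrays, and knockout replicate 3, the highest for Gp1bb, was the lowest knockout array for Gp5. The Gp5 difference was 1.20 (95% interval -0.65 to 3.05), and leaving out 1 array at a time moved it between 0.75, without knockout replicate 1, and 1.90, without knockout replicate 3.

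**Figure D1:**
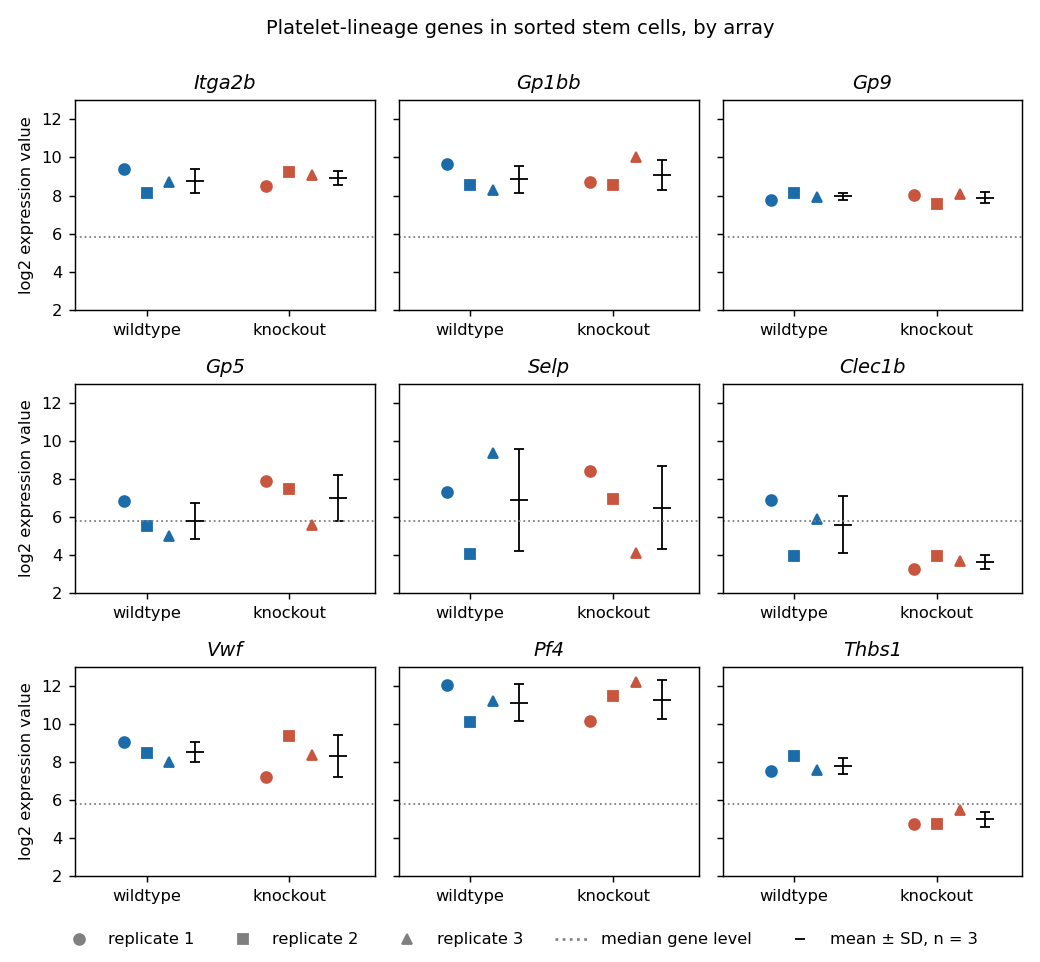
Log2 expression value (vertical axes) of the brightest probe set of each of the 9 measured genes, with wildtype arrays in blue, knockout arrays in red, the marker shape giving the replicate number, and mean ± SD (n = 3) beside each group. The 3 knockout arrays of Thbs1 lie below all wildtype arrays and under the median gene level of 5.81 (dotted line), while the groups of the other 8 genes overlap.

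Clec1b encodes CLEC-2, the platelet receptor for podoplanin. It read 6.91, 3.97 and 5.90 in wildtype and 3.27, 3.97 and 3.69 in knockout. Wildtype replicates 1 and 3 stood above every knockout array, while wildtype replicate 2 was level with knockout replicate 2, so the groups touched. All 3 knockout values lay under the median of the other-tissue probe sets. The log2 difference was -1.95 (SE 0.71, 95% interval -3.64 to -0.26), with no fold given since the knockout values and wildtype replicate 2 lay at readings seen without expression. It did not pass in limma over all genes (adjusted p = 0.887, and 0.749 to 0.987 over the alternatives). Without wildtype replicate 1 the difference was -1.29, and without wildtype replicate 2 it was -2.77. Pdpn, the gene of podoplanin itself, read 4.28 ± 1.20 (SD, n = 3) in wildtype and 4.54 ± 0.46 (n = 3) in knockout.

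Selp encodes P-selectin, the adhesion receptor that platelets and endothelial cells move from granules to the surface. It was measured by 3 probe sets, which disagreed. The brightest read 7.33, 4.05 and 9.35 in wildtype and 8.40, 6.95 and 4.10 in knockout, a difference of -0.43 (95% interval -4.20 to 3.34) with widely spread and overlapping groups. The second read 7.01, 9.29 and 8.15 in wildtype and 5.78, 5.33 and 4.49 in knockout. Here all knockout arrays lay below all wildtype arrays, and also under the 95th percentile of the other-tissue probe sets. The dimmest over all arrays, of a type (_x_at) open to cross-hybridisation, read 5.87, 8.80 and 10.02 in wildtype and 4.80, 3.61 and 3.89 in knockout, again without overlap. In the limma fit over all probe sets the differences of these latter 2 were -2.95 (SE 0.73) and -4.12 (SE 1.08), each with an adjusted p of 0.91. Wildtype replicate 2 was the lowest wildtype array in the first probe set and the highest in the second, although the annotation gives both the same sequence accession. With the mean of the 3 probe sets the Selp difference was -2.50 (SE 0.80). Selplg, the gene of the main P-selectin ligand on white cells, read 9.48 ± 0.50 (SD, n = 3) in wildtype and 10.03 ± 0.87 (n = 3) in knockout.

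**Figure D2:**
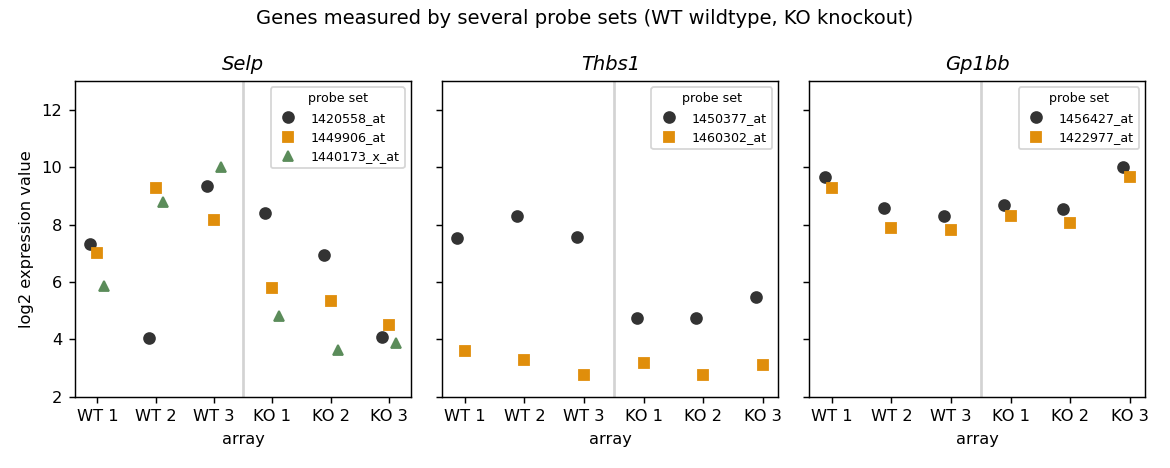
Log2 expression value (vertical axis) on each array (WT wildtype, KO knockout, replicates 1 to 3) for the 3 genes with several single-gene probe sets, 1 marker per probe set. The Selp probe sets part on wildtype replicate 2, at 4.05 against 9.29 and 8.80, and on knockout replicates 1 and 2; the Gp1bb pair move together, and the second Thbs1 probe set stays between 2.76 and 3.58.

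Vwf encodes von Willebrand factor, the adhesive protein of platelet alpha granules and endothelium that marks platelet-primed stem cells. It read 9.06, 8.45 and 8.01 in wildtype and 7.21, 9.38 and 8.37 in knockout, with overlapping groups. Knockout replicates 1 and 2 held the lowest and the highest of the 6 values. The difference was -0.18 (95% interval -1.83 to 1.46), which turned to 0.09 without wildtype replicate 1 and to 0.37 without knockout replicate 1.

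Pf4, the chemokine platelet factor 4 of alpha granules, read 12.03, 10.09 and 11.21 in wildtype and 10.17, 11.44 and 12.22 in knockout. Both groups spanned about the same range, and the difference was 0.16 (95% interval -1.39 to 1.72). Wildtype replicate 1 and knockout replicate 3 were the high arrays, as for Gp1bb.

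Thbs1 encodes thrombospondin 1, an alpha granule glycoprotein that binds CD47 and CD36. Its brighter probe set read 7.54, 8.30 and 7.57 in wildtype and 4.75, 4.75 and 5.47 in knockout. The gap between the lowest wildtype and the highest knockout array was wider than the range within either group. All knockout values lay under the 95th percentile of the other-tissue probe sets, 6.90, so no fold is given. The log2 difference was -2.81 (SE 0.45, 95% interval -3.89 to -1.74), lower in 3 of 3 knockout arrays. It did not pass over all genes (limma, adjusted p = 0.696), and the adjusted p ran from 0.349 to 0.915 over the alternatives and the other probe set. Leaving out each array in turn kept the difference between -3.05 and -2.56. The other probe set read 2.77 to 3.58 in wildtype and 2.76 to 3.18 in knockout, under the median of the other-tissue probe sets in every array, and had a difference of -0.21 (SE 0.25).

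The receptors of thrombospondin differed from each other. Cd47 read 11.92 ± 0.10 (SD, n = 3) in wildtype and 12.03 ± 0.18 (n = 3) in knockout in the brightest of its 5 probe sets. Cd36, a scavenger receptor of platelets and macrophages, read 6.92 in wildtype replicate 1 and 2.83 to 3.50 in the other 5 arrays. Its 2 other probe sets stayed between 2.39 and 3.02 on all arrays.

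Of the 9 genes, 0 passed in limma after adjustment over all genes, as did 0% of all 18193 genes. At an unadjusted p under 0.05 there were 2, Thbs1 and Clec1b, beside 4.84% of all genes. Both were lower in knockout, as were 2.44% of all genes by that rule, and 0 were higher, where 2.4% of all genes were. One gene, Thbs1, was lower without overlap between groups, where 4.25% of all genes were, and 0 were higher without overlap, where 6.67% were. Among the 13 probe sets 3 were lower without overlap, of 2 genes, where 4.23% of all 45037 probe sets were, and 0 were higher, where 6.66% were. The median difference of the 9 genes was -0.07, beside 0.07 over all genes, with 4 genes above 0 and 5 below. The intervals of the other 7 genes included 0 and reached at least 2-fold in one direction, so equal levels in both groups were not shown either.

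**Figure D3:**
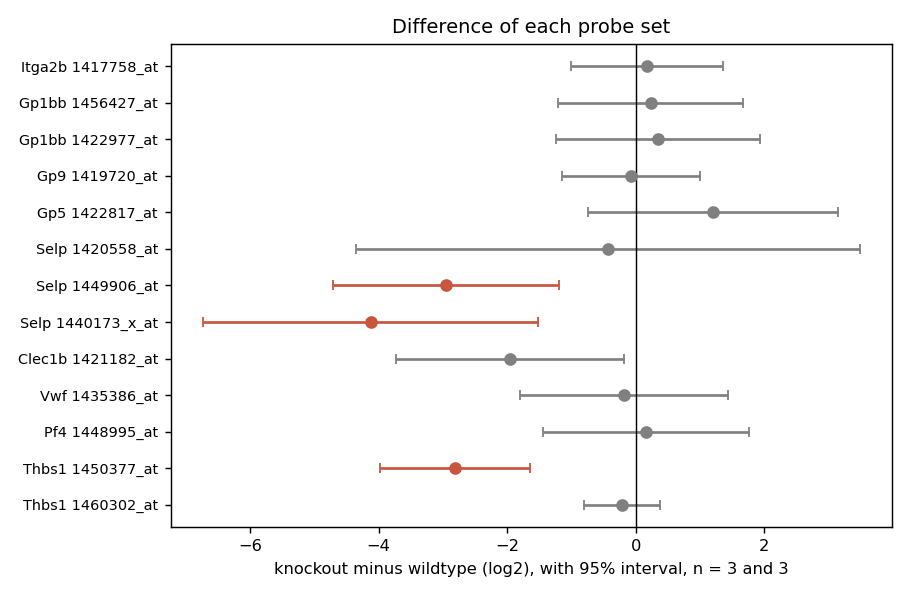
Knockout minus wildtype difference (log2, horizontal axis) of each of the 13 probe sets, from the limma fit over all probe sets, with 95% intervals (n = 3 and 3, not adjusted for the number of probe sets). Red marks the 3 probe sets whose groups did not overlap, 2 of Selp and 1 of Thbs1, at -2.95, -4.12 and -2.81; the other Selp probe set has the widest interval among the grey ones.

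Spread within both groups was larger for these genes than for all genes, and wildtype replicate 1 was often the high wildtype array. The median SD of the 9 genes over the wildtype arrays was 0.72, beside 0.37 for all genes and 0.62 for genes above the median level. Over the knockout arrays it was 0.80, beside 0.46 for all genes, with no value taken for genes above the median level. Wildtype replicate 1 was the highest wildtype array for 6 of the 9 genes: Itga2b, Vwf, Pf4, Gp1bb, Gp5 and Clec1b. This array was singled out with earlier results of these data known, so the count is a description and not a test. Over all genes wildtype replicate 1 was the highest wildtype array for 28.3%, and over genes above the median level for 32.0%. It lay above the mean of the other 2 wildtype arrays by 1.98 for Clec1b, 1.56 for Gp5, 1.38 for Pf4, 1.22 for Gp1bb, 0.97 for Itga2b and 0.82 for Vwf. Gp9 and Thbs1 were lowest in it, with deviations of -0.28 and -0.39. The median deviation of the 9 genes was 0.97 in wildtype replicate 1, -0.42 in replicate 2 and -0.05 in replicate 3, beside -0.07, 0.02 and 0.03 over all genes.

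Many but not most of the other megakaryocyte and platelet genes were also highest in wildtype replicate 1. Of 89 further genes on 7 lists, 41 were highest among wildtype arrays in replicate 1, 19 in replicate 2 and 29 in replicate 3. More than 2-fold above both other wildtype arrays were 19 of the 89 in replicate 1, against 3 in replicate 2 and 6 in replicate 3. For replicate 1 this held for 5.65% of all genes and 7.49% of genes above the median level, where 74 of the 89 lay. Some with the widest gaps are named here after their values were seen. Ppbp, the precursor of a platelet chemokine, read 10.54 in wildtype replicate 1 and 3.11 to 7.43 elsewhere. Tubb1, the tubulin of the platelet marginal band, read 10.58 there, 7.01 in wildtype replicate 2 and 2.96 to 4.73 in the other 4 arrays. Myl9, a myosin light chain, read 9.66 there and 5.17 to 7.30 elsewhere, and Rab27b, a GTPase of platelet granule release, 10.10 there and 3.73 to 8.23 elsewhere.

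Replicate 1 was the highest wildtype array for 28.3% of all genes and 32.0% of those above the median level. By list, it was so for 11 of 16 cytoskeleton and granule assembly genes and 9 of 16 other surface receptors. For 6 of 15 receptor signalling genes and 5 of 14 granule proteins it was also the highest. It was so for 4 of 9 binding partners, 2 of 4 eicosanoid enzymes and 4 of 15 transcription factors. Replicate 3 was the highest for 8 of the 15 transcription factors and 7 of the 15 signalling genes, and replicate 2 for 6 of the 14 granule proteins. The difference between lists was not tested. Gata1 read 7.72, 5.93 and 6.40 in wildtype, and the wildtype SDs of the 15 transcription factors ran from 0.14 for Meis1 to 0.99 for Tal1. The mean of 12 endothelial genes was 5.62 to 5.87 over the wildtype arrays, and 5 of the 12 were highest there in replicate 1. Among the 12, Cdh5 and Kdr read 3.31 to 4.62 on all 6 arrays. Pecam1, Emcn and Tie1, which stem cells also express, were brighter, and so was Egfl7, at 8.53, 8.07 and 9.32 in wildtype. Stab2 read 6.06, 5.22 and 5.10 in wildtype. Pecam1 read 9.13, 7.51 and 6.64 in wildtype, Emcn 9.20, 8.87 and 7.69, and Tie1 8.10, 9.31 and 8.29, with Tie1 at 6.85, 8.20 and 4.53 in knockout. The mean of 9 erythroid genes was 7.11 in wildtype replicate 1 and 6.49 to 6.75 in the other 2. Each wildtype array was the highest for 3 of these 9 genes, and their median deviation in replicate 1 was -0.12. The part of other cell types in the high values of replicate 1 was not tested.

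**Figure D4:**
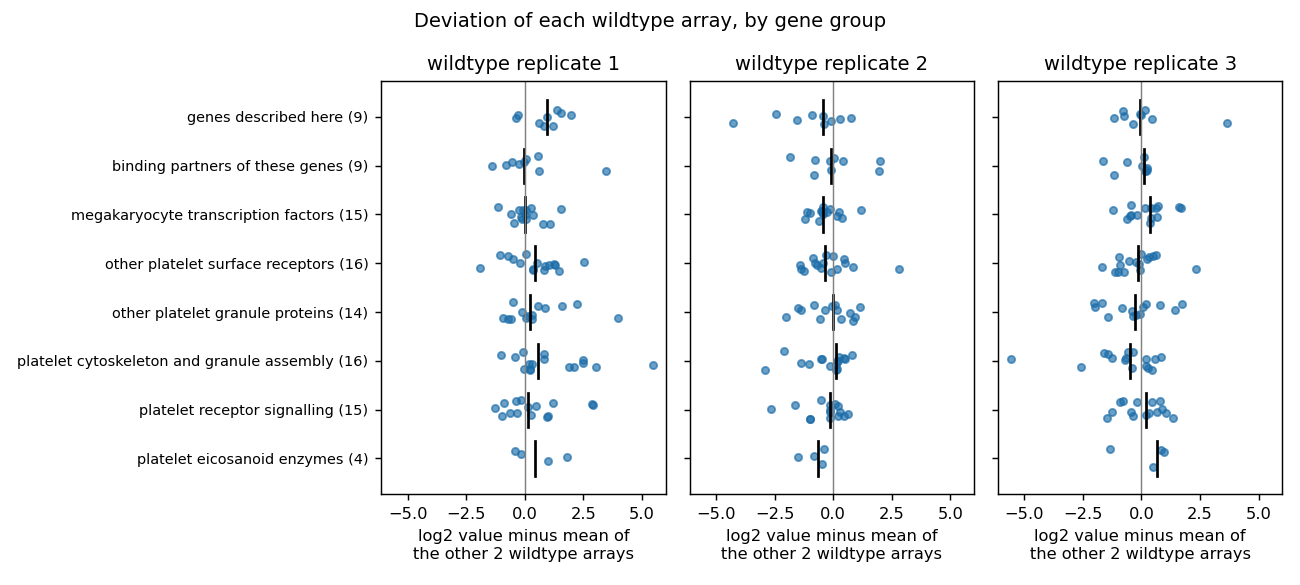
Deviation of each wildtype array from the mean of the other 2 (log2, horizontal axis) for the 9 genes and for 7 lists of other megakaryocyte and platelet genes, 1 point per gene, with the number of genes in brackets and a black bar at the median. The 9 genes have a median of 0.97 in replicate 1, and the points beyond 2.5 on that panel include Tubb1, Ppbp and Cd36.

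Of the 89 other genes 0 passed in limma over all genes, with a smallest adjusted p of 0.88. At an unadjusted p under 0.05 there were 8, all lower in knockout, where 2.44% of all genes were. The groups did not overlap for 8 lower and 2 higher genes, beside 4.25% and 6.67% of all genes. The median difference of the 89 was 0.10 and the mean -0.12, with 48 above 0 and 41 below.

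Of the 15 transcription factors of the lineage 2 were lower without overlap and 0 higher, where 4.25% and 6.67% of all genes were. Gfi1b, a repressor needed for platelet and red cell formation, read 10.42, 10.30 and 10.74 in wildtype and 7.72, 7.91 and 9.12 in knockout, a difference of -2.24 (SE 0.51). Ets1 differed by -0.56 (SE 0.32) without overlap, and another of its probe sets gave 1.62. Nfe2, a factor of platelet release, differed by -0.82 (SE 0.45), and Fli1, Runx1, Gata2 and Gata1 by 0.13, -0.08, -0.23 and 0.61.

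Among surface receptors F2rl3, the thrombin receptor PAR4, read 7.53, 7.59 and 7.34 in wildtype and 5.02, 5.93 and 4.40 in knockout. All knockout arrays lay below all wildtype arrays, as for 4.25% of all genes, with a difference of -2.37 (SE 0.50). The other 15 receptors overlapped between groups, and 9 of the 16 had a difference above 0, as did 10293 of all 18193 genes.

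Among granule proteins F5, coagulation factor V, was lower in knockout without overlap in both of its probe sets. The brighter read 5.86, 5.96 and 7.65 in wildtype and 4.30, 4.87 and 4.67 in knockout, a difference of -1.88 (SE 0.54). The other read 6.13, 5.68 and 5.57 in wildtype and 4.20, 3.51 and 3.42 in knockout, a difference of -2.08 (SE 0.34, adjusted p = 0.89 in limma over all probe sets). Except for wildtype replicate 3 in the brighter one, every value of both lay under 6.90, the 95th percentile of the other-tissue probe sets.

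Of the cytoskeleton and granule assembly genes 3 of 16 were lower without overlap, where 4.25% of all genes were. Vps33b, needed to form alpha granules, differed by -2.09 (SE 0.58), Ap3b1, an adaptor subunit of dense granule formation, by -1.76 (SE 0.50) and Gng11, a G protein gamma subunit, by -1.52 (SE 0.53). A second probe set of Ap3b1 gave -0.63 with overlap. Tubb1 and Rab27b had differences of -3.31 and -2.85 with overlapping groups, with wildtype replicate 1 far above the rest as given before.

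Of the 15 receptor signalling genes 1 was higher without overlap, where 6.67% of all genes were. It was Vav1, an exchange factor of blood cells, at 1.35 (SE 0.75) and at -0.48 in another probe set. The 4 eicosanoid enzymes overlapped, with Pla2g4a, which releases arachidonic acid, at -0.81 (SE 0.80) and Alox12 at 0.10 (SE 0.72). Among the binding partners Cd36 was lower without overlap (-1.69, SE 0.90), and Cxcr3, a chemokine receptor, higher by 0.10 (SE 0.16) at a level under 4.0 on every array.

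**Figure D5:**
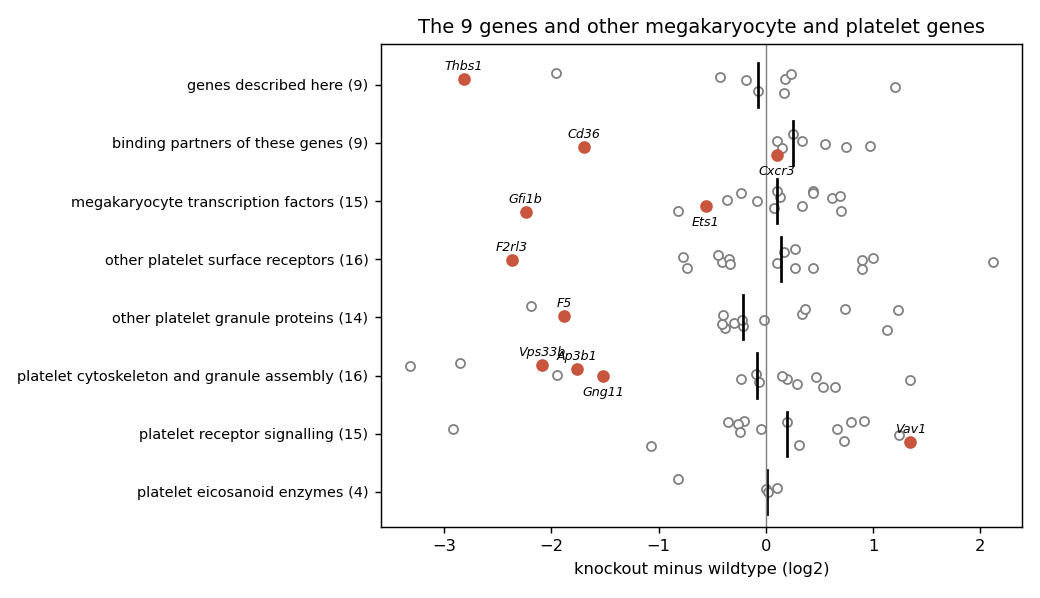
Knockout minus wildtype difference (log2, horizontal axis) of the 9 genes and of 7 lists of other megakaryocyte and platelet genes, 1 point per gene, with the number of genes in brackets, a black bar at the median and filled red points for genes whose groups do not overlap. Every list median lies between -0.22 and 0.26, and the filled points on the left are Thbs1, Cd36, Gfi1b, Ets1, F2rl3, F5, Vps33b, Ap3b1 and Gng11.

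The genes whose pattern over the 6 arrays was nearest to that of Thbs1, among 97 candidates from the same lists, were Gfi1b, Vps33b and F2rl3. Their root mean square differences from Thbs1, after centring each gene, were 0.50, 0.69 and 0.72 on the log2 scale. Nearest to Clec1b were Cd36 (0.77), Gfi1b (0.94) and Treml1 (0.97). Nearest to Vwf were Btk (0.33), Ptpn11 (0.45) and Alox12 (0.46), and nearest to Itga2b were Btk (0.28), Stim1 (0.30) and Etv6 (0.32). All of these rest on the same 6 arrays, and genes that vary little lie close to each other by construction.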

How the data were processed

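The table deposited by the authors holds log2 expression values of 45037 probe sets on 6 arrays; the log2 scale was read from the values. RNA was amplified with a whole-transcriptome kit per the labels' protocols, and the submitters' processing notes list RMA, Partek and Affymetrix Expression Console, giving no version. RMA compresses differences of dim probe sets. Probe sets with 1 gene in the platform annotation (34945; 932 named several and 9160 none) were used, and the one with the highest mean stood for a gene. Group differences were fitted by limma 3.58.1 under R 4.3.3 (lmFit, then eBayes allowing a trend with level), over all 18193 genes and again over all 45037 probe sets, with Benjamini-Hochberg adjustment and a threshold of 0.05. The fit was tested on simulated data. Summaries were made in Python 3.11.15 (numpy 2.4.6, pandas 2.3.3) and plots in matplotlib 3.10.9.

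Groups came from the sample titles. The genes, lists and tests were chosen with earlier results of these data known. Named genes were the 10 listed, Itgb3, Selplg, Pdpn, Cd47 and, from each other list, up to 3 with groups that do not overlap, otherwise up to 2, by smallest unadjusted p; others were named after their values were seen. Alternatives covered moderation, array weights, probe set choice, a filter on level, scaling, a replicate block and leaving out each array. The number of arrays limits the precision.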

Additional observations from a re-analysis of the deposited data

How the results depend on the processing

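Under the alternatives run 0 of the 9 genes and 0 of the 89 other platelet-lineage genes passed the threshold in limma, with 8 of the 9 and 74 of the 89 left in the fit of genes above the median level, which dropped Clec1b. Thbs1 and Gp5 kept their sign in all of them, and Clec1b in the 13 that held it. Array weights turned the signs of Pf4 (-0.0154), Gp1bb (-0.0212) and Selp (0.26). Leaving out 1 array at a time gave -0.34 to 0.72 for Pf4, -0.23 to 0.64 for Gp1bb and -1.86 to 0.79 for Selp. It gave -0.71 to 0.37 for Vwf, -0.13 to 0.50 for Itga2b and -0.16 to 0.10 for Gp9. In the probe set used for each gene, these 6 had no stable direction. For Selp the other 2 probe sets gave -2.95 and -4.12, and the mean of its 3 probe sets gave -2.50. It gave -0.21 to 0.37 for the median difference of the 9 genes, with 0.37 without knockout replicate 1 and 0.09 without wildtype replicate 1, 1 to 2 of the 9 genes without overlap between groups and 15 to 24 of the 89, fewer arrays making an overlap less likely. With the mean of probe sets 2 of the 9 genes did not overlap, Selp and Thbs1, and 1 of all genes passed the threshold, against 0. Among genes above the median level 6 of the 74 left did not overlap, against 10 of the 89 in the main fit. In the main fit 10.9% of all genes did not overlap, in either direction. That share was not counted under the alternatives, so the counts of genes without overlap there have no background beside them. The median deviation of wildtype replicate 1 moved by less than the wildtype SD under both scalings. The probe set chosen for Selp was the choice that moved a value most, from -0.43 to -4.12; the other probe sets were added after seeing the data. With the replicate block the median difference was -0.07 and 0 of the 9 genes passed. Deviations of same-numbered arrays from their group means correlated at -0.02, -0.01 and -0.01 over genes, and those of differently numbered arrays at -0.02 to 0.03. The labels do not say whether the numbers pair the samples. These correlations cannot decide it, since a shared factor may touch few genes.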

Other observations

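Some probe sets could not be given to 1 gene and were used in no comparison. One that the annotation gives to both Pald1 and Thbs1 read 7.84, 8.03 and 7.09 in wildtype and 7.95, 3.19 and 4.98 in knockout. Another, given to both Septin5 and Gp1bb, read 4.23, 3.43 and 3.34 in wildtype and 4.58, 4.61 and 5.04 in knockout.

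P2ry1, a platelet receptor for ADP, split the knockout arrays, at 4.78 in replicate 1 and 8.75 and 8.86 in replicates 2 and 3, beside 4.85 to 6.18 in wildtype.

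Genes that the naming rule gave from the lists of other cell types and tissues are listed here as knockout minus wildtype differences on the log2 scale. S100a8, S100a9 and Camp, of neutrophil granules and cytosol, were higher without overlap, by 2.12, 2.01 and 3.56. Klf1, an erythroid factor, was lower without overlap (-2.21), and Tfrc, the transferrin receptor, higher (0.78). Plvap, of endothelium, was higher without overlap (2.61). Dim genes higher without overlap were Cd14 (0.57), C1qa (0.38), Ncr1 (0.42), Lhb (0.58) and Ahsg (0.59), and Slc17a7 was lower (-1.20). Groups overlapped for Cd79b (-1.41), Ms4a1 (0.25), Itgam (0.34), Cpa3 (-0.44) and Mcpt8, with means of 7.10 in wildtype and 5.10 in knockout.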
